A study of Mus musculus with 12 samples.

Results

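The nuclear genes of oxidative phosphorylation were examined for lysine crotonylation (Kcr) in mouse dorsal hippocampus. The genes were chosen by symbol. They are the autosomal protein-coding genes of the RefSeq GRCm38 table whose names begin with Nduf, Uqcr, Atp5 or Cox4 to Cox8, together with Sdha, Sdhb, Sdhc, Sdhd and Cycs. The rule gave 94 of 20665 autosomal protein-coding genes. Of these, 39 belong to complex I by name, 8 are assembly factors of complex I (Ndufaf genes), 4 belong to complex II, 8 to complex III, 17 to complex IV and 17 to complex V (ATP synthase), and Cycs encodes cytochrome c. The mitochondrially encoded subunits and the 3 X-linked genes with such names are outside the rule.

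Oxidative phosphorylation passes electrons from NADH and succinate through complexes I to IV to oxygen and uses the resulting proton gradient to make ATP at complex V. Neurons depend on it for the ATP that drives ion pumping and synaptic transmission. Most of the subunits are encoded in the nucleus, and transcription factors such as NRF1, GABPA (an ETS-family factor, also called NRF-2 alpha) and YY1 are known to bind the promoters of many of these genes. Lysine crotonylation is an acylation of lysine that is made from crotonyl-CoA, and on histones it is found at active promoters.

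The 2 libraries analysed are chromatin immunoprecipitations with a pan-Kcr antibody, which binds crotonylated lysine in any sequence context, from dorsal hippocampus of C57BL/6J mice. In one, called learning, the mice had been taught spatial object recognition (SOR), a test of memory for object positions. In the other, called homecage, the mice stayed in their cage. Neither group is labelled as having received crotonate. The labels give no age, no training interval and no number of animals per library. The tissue was fixed in 1% formaldehyde and sonicated to fragments of 200 to 500 bp. The other 10 of the 12 libraries of the series were not analysed here. Each library is a list of called broad peaks with positions and no strengths, and read depth is unknown. There were 16243 learning peaks and 332168 homecage peaks, 20.4 times as many, so shares are read within each list and not between them. With 1 library per condition there was no test of a difference between learning and homecage, and every interval below is an exact (Clopper-Pearson) 95% interval that covers counting error only.

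The whole tissue holds several cell types. A homecage peak lay in or within 1 kb of all 7 neuronal, all 4 astrocyte, all 3 oligodendrocyte and all 4 microglial marker genes examined, and of 6 of 8 genes of other organs. A learning peak lay at 3, 2, 1, 1 and 1 of them. Over all autosomal protein-coding genes the shares were 85.9% for homecage peaks and 28.5% for learning peaks. Presence of a homecage peak therefore did not separate brain markers from markers of other organs, and the cells behind a peak are not known.

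Promoter bases are shown first for Ndufb2, a gene with upstream bases under a learning peak. Other genes, such as Ndufb1 and Atp5j, also had such bases. Next come 4 genes with a learning peak near the start and a match to a motif of a known regulator. All are RefSeq sequences of GRCm38.p6, given 5′ to 3′ on the strand of the gene, and cover the 250 bases before the gene start. They were chosen after the peaks were seen, among starts whose upstream bases overlapped no annotated gene by more than 30 bases. Ndufb2 encodes an accessory subunit of complex I. In its sequence (chr6:39592315-39592564, plus strand) the capitals mark the 215 bases that lay inside the learning peak.
Ndufb2: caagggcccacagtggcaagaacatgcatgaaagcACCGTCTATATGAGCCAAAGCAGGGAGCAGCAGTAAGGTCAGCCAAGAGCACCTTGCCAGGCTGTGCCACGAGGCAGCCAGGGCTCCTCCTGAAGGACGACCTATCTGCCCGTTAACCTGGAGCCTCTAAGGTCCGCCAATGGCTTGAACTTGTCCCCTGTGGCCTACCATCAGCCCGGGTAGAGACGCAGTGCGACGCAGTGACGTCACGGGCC
In the next sequences the capitals mark matches to the NRF1 motif with its central base left free, CCGGAAG (ETS family) and GGGCGG (SP family) on either strand. Atp5g2 (chr15:102671048-102671297, minus strand) encodes a precursor of the c subunit of the ATP synthase ring. Atp5e (chr2:174464102-174464351, minus strand) encodes the epsilon subunit of its F1 head, Uqcr11 (chr10:80406822-80407071, minus strand) a small subunit of complex III, and Ndufb7 (chr8:83566508-83566757, plus strand) an accessory subunit of complex I. Cox6a1 (chr5:115348959-115349208, minus strand), a complex IV subunit, had no peak in either list and is shown as the peak-free gene with the most motifs matched.
Atp5g2: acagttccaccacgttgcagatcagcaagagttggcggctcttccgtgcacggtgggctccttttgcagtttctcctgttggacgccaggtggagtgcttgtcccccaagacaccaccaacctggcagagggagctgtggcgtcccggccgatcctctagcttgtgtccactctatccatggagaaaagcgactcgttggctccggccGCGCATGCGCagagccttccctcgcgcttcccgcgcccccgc
Atp5e: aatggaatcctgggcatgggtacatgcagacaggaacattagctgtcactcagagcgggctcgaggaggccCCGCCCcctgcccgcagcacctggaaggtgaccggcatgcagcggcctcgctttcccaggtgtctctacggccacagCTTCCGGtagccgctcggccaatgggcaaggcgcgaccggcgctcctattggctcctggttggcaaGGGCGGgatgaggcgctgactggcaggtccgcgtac
Uqcr11: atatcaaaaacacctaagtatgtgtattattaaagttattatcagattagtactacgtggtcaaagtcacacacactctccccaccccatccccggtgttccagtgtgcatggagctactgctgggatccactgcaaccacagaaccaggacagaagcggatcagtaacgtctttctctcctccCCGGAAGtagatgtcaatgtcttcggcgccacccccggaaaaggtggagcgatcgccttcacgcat
Ndufb7: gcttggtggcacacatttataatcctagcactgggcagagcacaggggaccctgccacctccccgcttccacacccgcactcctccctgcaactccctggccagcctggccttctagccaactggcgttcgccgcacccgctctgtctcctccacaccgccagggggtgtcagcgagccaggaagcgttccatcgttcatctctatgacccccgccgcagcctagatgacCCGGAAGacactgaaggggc
Cox6a1: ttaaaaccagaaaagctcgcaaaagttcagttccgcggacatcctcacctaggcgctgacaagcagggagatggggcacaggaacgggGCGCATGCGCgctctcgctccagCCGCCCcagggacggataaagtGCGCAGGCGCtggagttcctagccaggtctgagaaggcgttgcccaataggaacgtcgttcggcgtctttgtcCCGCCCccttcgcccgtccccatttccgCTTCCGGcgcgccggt
The NRF1 match of Atp5g2 begins 42 bases before the start. The ETS matches begin 102 bases before the start of Atp5e, 66 before that of Uqcr11 and 20 before that of Ndufb7. Cox6a1 has NRF1 matches at 162 and 117 bases and an ETS match at 16 bases before its start, so the same letters occurred without a called peak. The learning peaks at the starts of Atp5g2, Atp5e, Uqcr11 and Ndufb7 began 71, 87, 117 and 73 bp after the start. The marked matches of these genes therefore lay outside the learning peaks. All matches shown are descriptions of sequence and not of bound sites.

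In the learning list, 31 of the 94 genes had a peak in the gene or within 1 kb of its ends (33.0%, 95% interval 23.6 to 43.4%), against 28.5% of all autosomal protein-coding genes. In the homecage list, 78 had one (83.0%, 73.8 to 89.9%), against 85.9%. Both backgrounds lay inside the intervals, so the shares of the respiratory genes were not distinguishable from those of genes in general. The respiratory genes are short, with a median length of 7336.5 bp against 17491 bp for all genes, and longer genes have more room for peaks. Against genes no longer than the longest member, the backgrounds were 23.9% (learning) and 84.3% (homecage). Within the interquartile length range of the members (3935.75 to 12849.8 bp, 46 members), a learning peak was present at 32.6% of members (19.5 to 48.0%) and 18.2% of all genes, and a homecage peak at 93.5% (82.1 to 98.6%) and 81.3%. In that range both shares lay above the background, and the homecage difference turned from negative to positive. The learning difference changed sign to -3.80 percentage points when peaks that also reached another gene were left out, and to -2.39 when peaks narrower than 500 bp were dropped. Without those narrow peaks the homecage share was 38.3% of members and 57.9% of all genes.

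By complex, the learning share ran from 4 of 17 genes in complex IV (23.5%, 6.81 to 49.9%) to 5 of 8 in complex III (62.5%, 24.5 to 91.5%). It was 11 of 39 in complex I (28.2%), 2 of 8 among the assembly factors (25.0%), 2 of 4 in complex II and 7 of 17 in complex V (41.2%). Cycs had no learning peak. All of these intervals overlapped each other and the background of 28.5%, so no order among the complexes can be read from the counts. The homecage shares were 33 of 39, 8 of 8, 4 of 4, 6 of 8, 12 of 17 and 14 of 17 in complex I, the assembly factors, and complexes II to V, and Cycs had 2 homecage peaks.

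**Figure D1:**
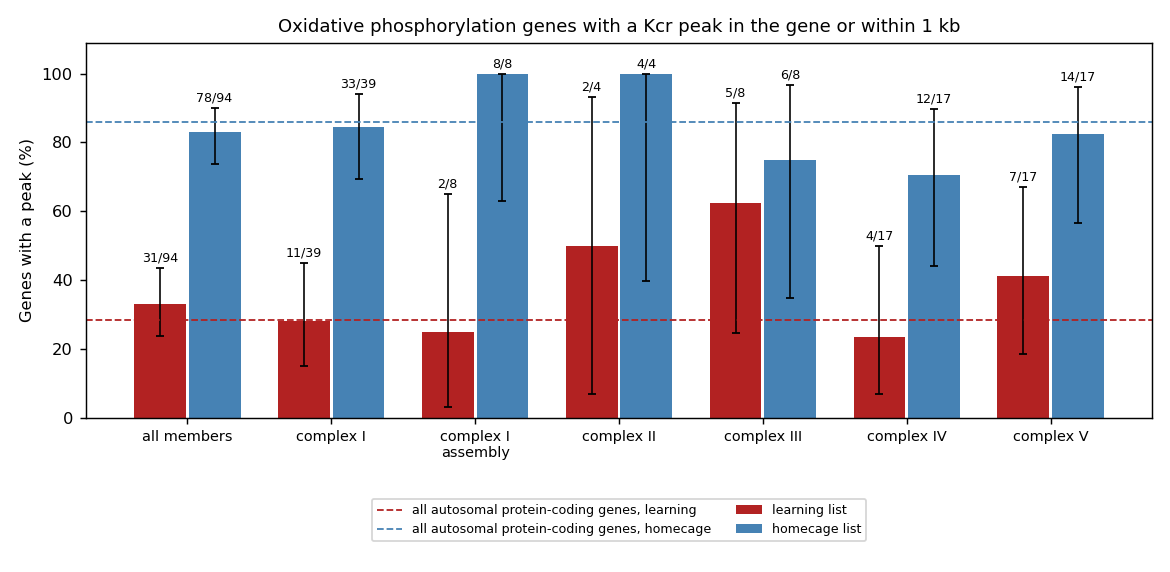
Percent of oxidative phosphorylation genes with a pan-Kcr peak in the gene or within 1 kb of its ends, for all 94 genes and by complex (x axis), in the learning list (red) and the homecage list (blue), with exact 95% intervals and gene counts above them; Cycs is counted among all members alone. Dashed lines are the percent of all autosomal protein-coding genes, 28.5% and 85.9%, and they cross the interval of every group.

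The learning peaks at these genes sat just inside the gene start. The RefSeq promoter table gives a start for 76 of the 94 genes, and 21 of them had a learning peak within 1 kb of it (27.6%, 17.99 to 39.1%), against 17.5% of the 16457 genes with a start in the table. At the opposite end, 2 of 76 had one (2.63%, 0.320 to 9.18%), against 1.95%. Those 2, Ndufaf8 and Atp5k, are so short that the same peak reached both windows. The 21 peaks centred within 1 kb of a start had a median centre 239 bp downstream of it. Of them, 17 were downstream (81.0%, 58.1 to 94.6%), 3 upstream and 1 on the start base, and the downstream centres lay between 92 and 410 bp. Across all genes 73.3% of 2958 such learning peaks were downstream, with a median of 243 bp, so the placement was shared with genes in general. The 75th percentile of the downstream centres was 451 bp over 2168 peaks of genes in general and 316 bp over the 17 of the members. No interval was computed for it, so this gap is description only. Only 3 learning peaks covered the start base itself, those of Ndufb1, Ndufb2 and Atp5j.

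Base by base, the learning coverage of the members was highest 200 bp after the start, where 14 of 76 genes were under a peak (18.4%), compared with 7.76% of all genes. It was 3.95% at the start itself and 0 of 76 at 600 bp, where 4.09% of all genes were covered. No intervals were computed for single positions, so a gap of a few genes at any of them is description only. The homecage coverage was also highest at 200 bp, in 25 of 76 genes (32.9%), against 23.5% of all genes, and had another rise to 18.4% at -300 bp, against 11.5%. Between them the start itself was covered in 13.2% of the members and 13.6% of all genes.

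**Figure D2:**
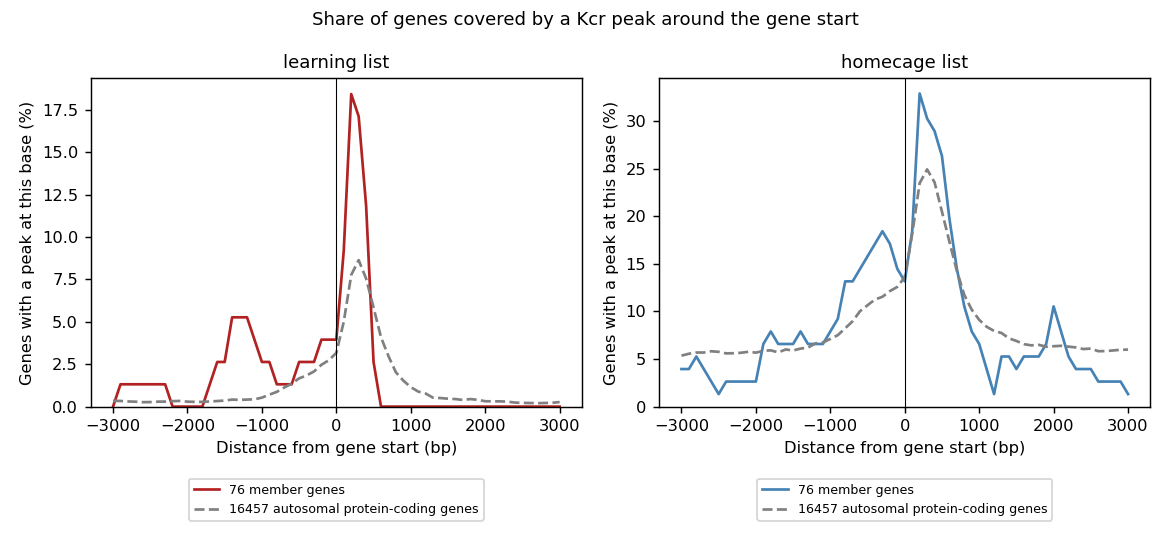
Percent of genes covered by a Kcr peak (y axis) at each distance from the outermost listed gene start, in 100-bp steps (x axis, bp, positive in the direction of transcription), for 76 members (solid) and 16457 autosomal protein-coding genes (dashed), in the learning list (left) and the homecage list (right). The member curves peak at 200 bp, at 18.4% and 32.9%.

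Homecage peaks were within 1 kb of the start in 49 of the 76 genes (64.5%, 52.7 to 75.1%), against 54.6%, and within 1 kb of the opposite end in 19 (25.0%, 15.8 to 36.3%), against 31.5%. Counting either end for the 18 genes without a listed start, the start shares over all 94 were 28.7% (19.9 to 39.0%) for learning peaks and 67.0% (56.6 to 76.4%) for homecage peaks, against 17.2% and 56.1%. Both of these intervals lay above their backgrounds, whereas over the 76 listed starts the homecage interval included its background of 54.6%. Without peaks that also reached another gene, the start shares over all 94 were 17.0% (learning) and 40.4% (homecage). No background was counted for that setting. CpG-rich promoters, taken as a GC content of at least 50% and an observed over expected CpG ratio of at least 0.6 in the 300-base table sequence, were more common among the members. They made up 59 of 76 (77.6%, 66.6 to 86.4%) against 49.9% of all genes. Within this class, 17 of 59 members had a learning peak at the start (28.8%, 17.8 to 42.1%), and so did 28.3% of all genes of the class. A homecage peak was there in 66.1% of members (52.6 to 77.9%) and 68.7% of all genes of the class. Among CpG-rich promoters the respiratory genes thus had the background share in both lists. Among the other 17 members, 4 had a learning start peak (23.5%, 6.81 to 49.9%) against 6.64% of genes of that class, a lower bound just above the background that rests on 4 genes.

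Motifs of the known regulators were counted in the same 300-base promoters, on both strands, and none of the motifs contains another apart from the exact NRF1 form within the one with a free base. The exact NRF1 motif was present in 7 of 76 members (9.21%, 3.78 to 18.1%) and 1.49% of all promoters, and the form with 1 free base in 19 (25.0%, 15.8 to 36.3%) and 7.39%. AAGATGGC (YY1) was present in 11 (14.5%, 7.45 to 24.4%) and 3.59%. Among CpG-rich promoters the members still had more of both, with 32.2% (20.6 to 45.6%) against 13.8% for the NRF1 form with a free base and 13.6% (6.04 to 25.0%) against 5.48% for AAGATGGC. CCGGAAG was present in 19 members (25.0%) and 13.3% of all promoters, but in 23.7% and 21.5% of the CpG-rich ones. GGGCGG was present in 46.1% and 50.3%, and in 52.5% (39.1 to 65.7%) of CpG-rich member promoters against 79.0%. For each motif, the intervals of members with a learning start peak and of the others overlapped. The NRF1 form with a free base was found in 3 of 21 with a peak (14.3%, 3.05 to 36.3%) and 16 of 55 without (29.1%, 17.6 to 42.9%). CCGGAAG was found in 9 of 21 (42.9%, 21.8 to 66.0%) and 10 of 55 (18.2%, 9.08 to 30.9%). For CCGGAAG each share lay outside the interval of the other group, a difference that was not tested.

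**Figure D3:**
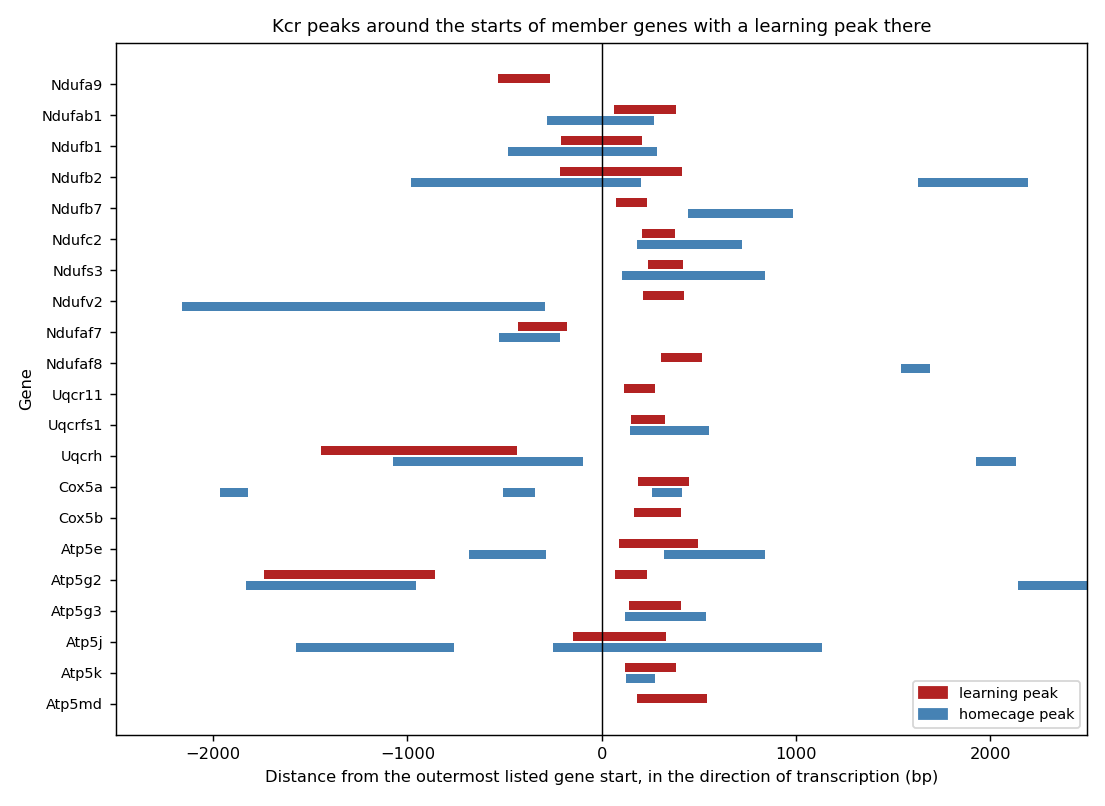
Kcr peaks around the outermost listed start (x axis, bp in the direction of transcription, shown to 2500 bp on either side) of the 21 members with a learning peak centred near the start (y axis), with learning peaks in red above homecage peaks in blue. Most learning peaks begin 66 to 306 bp after the start; those of Ndufa9, Ndufaf7 and Uqcrh lie upstream, and Atp5g2 has one on either side.

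Complex I takes electrons from NADH. The widest learning peak of the complex lay across the start of Ndufb2 (chromosome 6, 39592350 to 39592976, 627 bp) and overlapped a homecage peak of 1181 bp.

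The Ndufb1 peak (chromosome 12, 101975532 to 101975945, 414 bp) was centred on the start base and also reached Cpsf2, and a 772-bp homecage peak covered it. At Ndufb9 the learning peak (chromosome 15, 58933632 to 58934003, 372 bp) lay across the gene end next to Tatdn1, and the nearest homecage peak was 96 bp away. Ndufs3, Ndufab1 (the mitochondrial acyl carrier protein), Ndufc2, Ndufb7 and Ndufv2 had narrower learning peaks of 163 to 320 bp, all within the first 425 bp of the gene. Ndufa9 had one upstream of its start and Ndufa12 one 5431 bp into the gene.

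The widest homecage peaks of the complex had no learning partner. They lay upstream of Ndufv2 (chromosome 17, 66101849 to 66103719, 1871 bp), 504 bp from its learning peak, and across the start of Ndufb3 (chromosome 1, 58585537 to 58587005, 1469 bp), whose nearest learning peak was 65636 bp away. Ndufs4, an accessory subunit in a gene of 100300 bp, had 12 homecage peaks and no learning peak. No peak of either list was found at Ndufa2, Ndufa3, Ndufc1, Ndufs5, Ndufb4b and Ndufb4c. The last pair are single short loci of 471 and 485 bp that resemble Ndufb4. Reads there could be shared with related copies, which was not tested.

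Among the assembly factors, which help build complex I without being part of it, Ndufaf7 and Ndufaf8 had a learning peak. Ndufaf7, a methyltransferase needed for assembly, had a 254-bp peak upstream of its start (chromosome 17, 78936703 to 78936956) that also reached Cebpz and overlapped a 313-bp homecage peak. The Ndufaf8 peak (chromosome 11, 120099240 to 120099448, 209 bp) lay 306 bp inside the gene, and the nearest homecage peak was 1027 bp away. Ndufaf2, which takes the place of Ndufa12 during assembly, spans 106064 bp and had 12 homecage peaks, the widest 1469 bp (chromosome 13, 108077798 to 108079266), and no learning peak. Ndufaf6 had 4 homecage peaks of up to 792 bp (chromosome 4, 11075040 to 11075831).

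Complex II, succinate dehydrogenase, had the narrowest learning peaks. Those of Sdha, the flavoprotein subunit, and Sdhc, a membrane anchor, were both 146 bp wide. The Sdha peak (chromosome 13, 74330948 to 74331093) was 19147 bp into the gene, and the nearest homecage peak lay 2351 bp away. The Sdhc peak lay inside the gene, within a homecage peak of 536 bp. The widest homecage peaks were 685 bp inside Sdhc (chromosome 1, 171131414 to 171132098) and 658 bp across the far end of Sdhb, the iron-sulfur subunit (chromosome 4, 140978833 to 140979490). Sdhd, the other anchor, had 2 homecage peaks near its start.

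Complex III passes electrons from ubiquinol to cytochrome c. The widest learning peak of all 94 genes lay upstream of Uqcrh, the hinge protein that helps dock cytochrome c (chromosome 4, 116075505 to 116076516, 1012 bp). It ran from -1446 to -435 bp relative to the start, overlapped a 977-bp homecage peak (116075168 to 116076144), and also reached Lrrc41. Uqcrc2, a core protein, had a 284-bp learning peak (chromosome 7, 120635409 to 120635692) within an 852-bp homecage peak. Uqcrfs1, the Rieske iron-sulfur protein, had one of 180 bp (chromosome 13, 30544988 to 30545167) that overlapped a 408-bp homecage peak. Uqcrb, Uqcrc1 and Uqcr10 had homecage peaks alone, the widest 993 bp outside Uqcrb (chromosome 13, 66898866 to 66899858). Cycs, which carries electrons from complex III to complex IV, had homecage peaks of 330 and 191 bp, both over 1 kb into the gene.

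Complex IV reduces oxygen. Cox5a (chromosome 9, 57521417 to 57521680, 264 bp), Cox5b and Cox6c (chromosome 15, 35937765 to 35938099, 335 bp) had learning peaks inside the gene. Those of Cox5a and Cox5b began 185 and 168 bp after the listed start, which in Cox5a lies inside the annotated gene, and that of Cox6c was near a gene end. The Cox5a peak was wider than its homecage partner of 157 bp, and the Cox6c peak was about as wide as its partner of 320 bp. Cox7b2, a testis isoform in a gene of 105383 bp, had a 393-bp learning peak (chromosome 5, 71507436 to 71507828) 40377 bp from its start and 13 homecage peaks, all inside the gene. Of the 8 tissue-restricted isoforms (Cox4i2, Cox6a2, Cox6b2, Cox7a1, Cox7b2, Cox8b, Cox8c and Ndufa4l2), none had a learning peak near a start (0 of 8, up to 36.9%), against 27 of the other 86 genes (31.4%, 21.8 to 42.3%). The interval of the isoforms includes the share of the others. Homecage peaks were present near a start in 4 of 8 isoforms and 59 of 86 others. Cox4i2, the lung isoform of subunit 4, had the widest homecage peak of the complex (chromosome 2, 152752890 to 152753654, 765 bp), and Cox6b1 one of 555 bp (chromosome 7, 30623962 to 30624516). Cox6a1, Cox6a2, Cox7a1 and Cox8b had no peak in either list.

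Complex V makes ATP. The 3 genes Atp5g1, Atp5g2 and Atp5g3 encode precursors of the same c subunit and differed from each other. Atp5g2 was the only member with 2 learning peaks, one of 882 bp upstream (chromosome 15, 102671904 to 102672785), which overlapped an 874-bp homecage peak, and one of 163 bp (102670814 to 102670976) that began 71 bp after the start, 1028 bp from the nearest homecage peak. Atp5g3 had a 265-bp learning peak (chromosome 2, 73910919 to 73911183) within a 416-bp homecage peak. Atp5g1 had no peak in either list.

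Atp5j encodes coupling factor 6 and lies head to head with Gabpa, the ETS factor of the respiratory genes. Its 475-bp learning peak (chromosome 16, 84835296 to 84835770) covered a listed start of Atp5j, counted for both genes, and lay within the widest homecage peak of the complex (84834493 to 84835878, 1386 bp). The Atp5e peak (chromosome 2, 174463603 to 174464014, 412 bp) began 87 bp after the start and overlapped a 523-bp homecage peak. Atp5d and Atp5k also had a peak in both lists. Atp5h, a stalk subunit, had a 1149-bp homecage peak across its start (chromosome 11, 115419712 to 115420860) and the nearest learning peak was 45398 bp away. Atp5a1 and Atp5b, the catalytic head, had homecage peaks alone, and Atp5o had no peak.

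Across the 94 genes, peaks of both lists were found at 27, homecage peaks alone at 51, learning peaks alone at 4 and none at 12, compared with 27.9%, 58.0%, 0.561% and 13.5% of all autosomal protein-coding genes. The 4 genes with a learning peak alone were Uqcr11 (chromosome 10, 80406548 to 80406704, 157 bp), Uqcrq (chromosome 11, 53430390 to 53430633, 244 bp, also near Gdf9), Cox5b (chromosome 1, 36691655 to 36691895, 241 bp) and Atp5md (chromosome 19, 47090104 to 47090465, 362 bp, also near Pdcd11). All are small-subunit genes of 1902 to 7177 bp, and all 4 peaks lay inside the gene. They made up 12.9% of the 31 members with a learning peak (3.63 to 29.8%), against 1.97% of the 5885 genes with a learning peak. Within the interquartile length range of the members the count fell to 1 of 15 (6.67%, 0.169 to 31.9%), against 4.98%. The nearest homecage peaks were 3924, 1934, 6629 and 1520 bp away in the order given, and with 3 kb windows Cox5b and Uqcr11 remained.

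Of the 32 learning peaks at the members, 20 overlapped a homecage peak (62.5%, 43.7 to 78.9%), against 48.6% of the 8621 learning peaks at autosomal protein-coding genes. In 13 of the 20 the homecage partner was the wider and in 7 the learning peak was. When the overlap had to cover 50% or more of each peak, 8 of 32 were left (25.0%). Conversely, 20 of the 196 homecage peaks at the members overlapped a learning peak (10.2%, 6.35 to 15.3%), with the learning list far the shorter. No share over all genes was counted beside the homecage overlap, the width comparison or the 50% overlap. These counts are therefore not results about the members. The median learning width was 264.5 bp at the members (146 to 1012 bp) and 306.5 bp over all autosomal learning peaks. The corresponding homecage medians were 373.5 bp (147 to 1871 bp) and 351 bp.

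**Figure D4:**
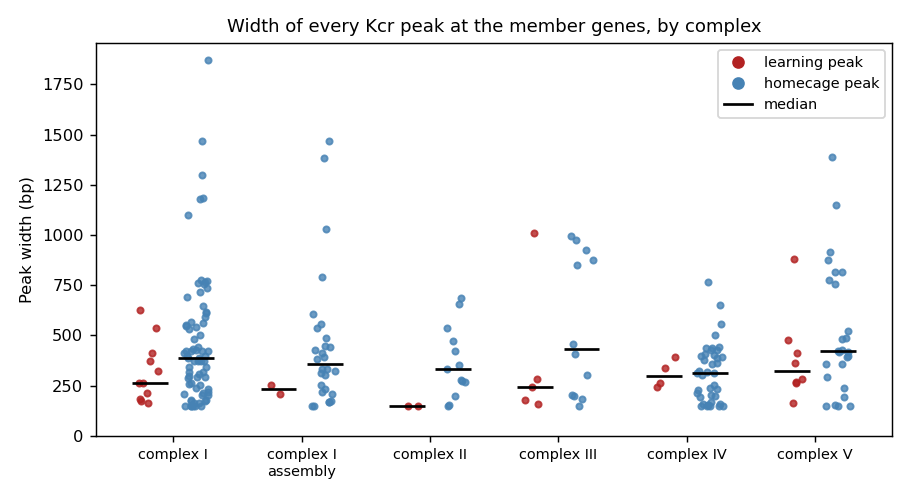
Width in bp (y axis) of every learning (red) and homecage (blue) peak at the members, by complex (x axis), with the median as a bar; points are shifted sideways at random, and the 2 peaks of Cycs are left out. The widest learning peak is the 1012-bp one of complex III, and both learning peaks of complex II are 146 bp.

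Homecage peaks were as dense in and around the respiratory genes as in genes in general, 1.45 and 1.44 per 10 kb of gene and flank. Learning peaks were denser, 0.236 against 0.0893 per 10 kb, 2.64-fold. The members are shorter, so that a start window takes up more of each gene, and the part of length in this ratio was not tested. Of the learning peaks 12 of 32, and of the homecage peaks 40 of 196, also lay within 1 kb of another protein-coding gene and cannot be assigned to a single gene. The share of such peaks over all genes was not counted, so these counts are a limit on assignment and not results about the members.

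Other genes of mitochondrial function were taken from lists. Learning start peaks were present at 12 of 41 assembly factors outside the rule (29.3%, 16.1 to 45.5%), such as Cox10 and Bcs1l, at 4 of 20 genes of electron carriers and transport (20.0%), at 4 of 17 genes of the tricarboxylic acid cycle (23.5%), among them the citrate synthase gene Cs, at 3 of 22 protein import genes (13.6%) and at 17 of 78 mitochondrial ribosomal protein genes (21.8%, 13.2 to 32.6%). The background is 17.2%, inside all of these intervals. Homecage start peaks were present at 64.1 to 75.0% of the genes of these lists, against 56.1%. That background was also inside the interval of every list, for example 52.4 to 74.7% for the mitochondrial ribosomal protein genes.

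The transcription regulators of mitochondrial genes had a learning start peak at 6 of 17 genes (35.3%, 14.2 to 61.7%), an interval that also includes the background. The 6 were Nrf1, Gabpa, Gabpb1, Gabpb2, Yy1 and Ppargc1b, a coactivator gene. The Nrf1 peak was 956 bp wide (chromosome 6, 30047613 to 30048568) and the Gabpb1 peak 773 bp (chromosome 2, 126674869 to 126675641), and both overlapped a homecage peak. The Yy1 peak was 590 bp wide (chromosome 12, 108793893 to 108794482) and overlapped none. Gabpa shares its peak with Atp5j. Ppargc1a, the coactivator PGC-1 alpha, had 4 learning peaks of 164 to 261 bp, none of them near a start or overlapping a homecage peak.

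**Figure D5:**
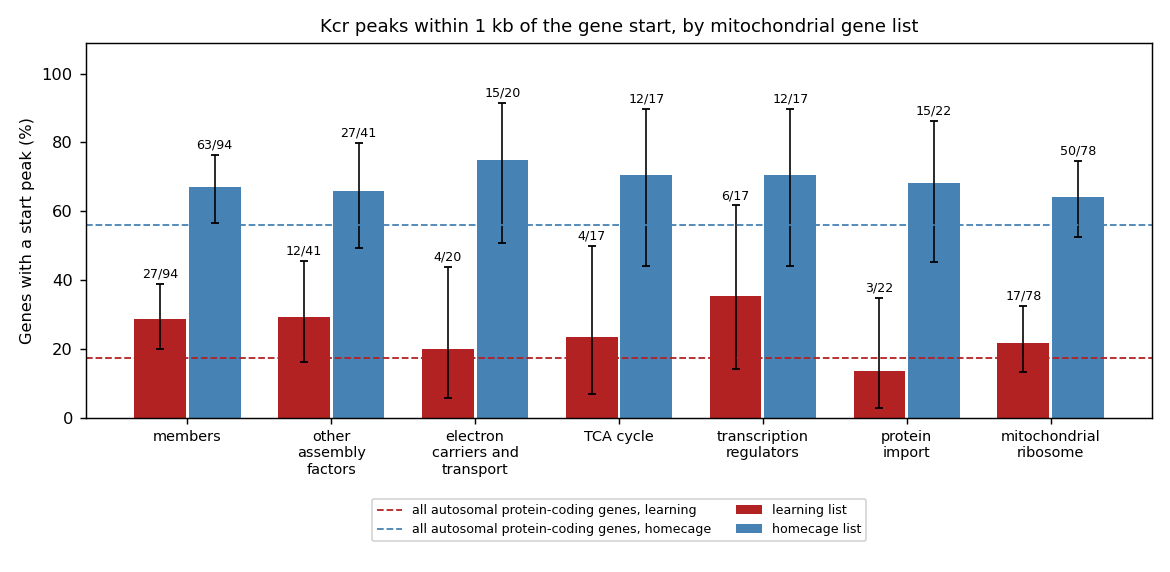
Percent of genes with a Kcr peak within 1 kb of the gene start, or of either end where no start is listed (y axis), for the 94 members and 6 other lists of mitochondrial genes (x axis), in the learning (red) and homecage (blue) lists, with exact 95% intervals and gene counts. Dashed lines are all autosomal protein-coding genes, 17.2% and 56.1%. The members are at 28.7% and 67.0%, the other assembly factors at 29.3% and 65.9% and the regulators at 35.3% and 70.6%, with wider intervals over fewer genes.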

How the data were processed

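Pan-Kcr ChIP-seq was analysed from 2 libraries, learning and homecage, grouped by title. The deposited files list the start and end of each broad peak in bp, 1 list per library, called at a p-value threshold of 0.01 per the peak names. The submitters' processing notes name Trimmomatic, BWA, MACS2 and the build mm10, without versions or settings. Whether an input served as control is not given in the sources used here. Strengths and read totals are not in the lists, so depth is unknown.

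Gene positions came from the RefSeq table of GRCm38.p6 and gene starts from its promoter table (76 of 94 members). A gene was counted with a peak if 1 bp or more of a peak lay in the gene or within 1 kb of its ends, and the same was done for all 20665 autosomal protein-coding genes as background. Most lists matched fully; Coa1 was not matched. Named are the 4 genes per complex with the widest learning peak, the 2 with the widest homecage peak, genes without a peak and tissue-restricted isoforms; further genes were named after their values were seen, and a few items are not reported here. Members and lists were chosen with earlier results of these data known. The overlap functions were checked on simulated lists. Python 3.11.15, with scipy 1.17.1, matplotlib 3.10.9, numpy 2.4.6 and pandas 2.3.3, was used. Alternatives changed window, peak width, merging, assignment, list length, overlap and background.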

Additional observations from a re-analysis of the deposited data

How the results depend on the processing

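No paired analysis was possible because learning and homecage are 1 Kcr library each, and for the same reason no replicate was left out. A stricter threshold on strength could not be applied, and a minimum width of 500 bp took its place. That minimum lowered the members with a learning peak to 4.26% against 6.65% of all genes (4.26% at starts), those with a homecage peak to 38.3% against 57.9% (29.8% at starts) and the homecage difference from the background to -19.6 percentage points, and 100% of the 4 remaining learning peaks overlapped a homecage peak. Leaving out peaks that reach another gene gave 20.2% against 24.0% (learning; 17.0% at starts) and 70.2% against 79.9% (homecage; 40.4% at starts). A homecage list reduced to its widest peaks, as many as the learning list holds, gave 12.8% of members against 24.8% of all genes, a difference of -12.1 points, with 10.6% at starts and 9.38% of learning peaks shared. Windows of 3 kb gave 77.7% for homecage starts, and asking that the overlap cover 50% or more of each peak gave 25.0% shared. Within the interquartile length range of the members, an alternative chosen after seeing the data, the homecage difference was 12.2 points. The split of promoters by CpG content, the NRF1 motif with a free base and the count over listed starts were also chosen after seeing the data. Of 141 recomputed values, the other 34 main values and 72 values by complex stayed inside the counting interval, and 19 values by complex did not. Start shares were not recomputed for gene bodies alone, and shared peaks not for peaks at 1 gene. Under the minimum width, the 1-gene peaks, the widest-peak list and the 3 kb windows, start shares were computed for members alone. Whether they stay above the share of all genes there is unknown.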

Other observations

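The 3 X-linked genes of the same name families, Ndufa1, Ndufb11 and Cox7b, had no peak in either list within the gene or 1 kb of it. Of 19 pseudogenes whose names carry these stems, none had a learning peak and 3 had a homecage peak (Atp5k-ps4, Atp5l-ps2 and Ndufs5-ps). The shares over all X-linked genes and all pseudogenes were not counted. The autosomal backgrounds do not apply to these genes, so the counts cannot be read as traits of them.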
